A study of Mus musculus with 6 samples.

Results

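The complement system was examined on 6 single-color arrays of 1G11 cells, through 9 genes that code for complement components and regulators. These genes were C1ra, C1s, C2, C3, C4b, Cfb, Serping1, Cd55 and Cd59a, and they were found by the gene name that the array annotation gives for each non-control spot. They are 9 of 36869 genes on the array and are covered by 12 probes on 21 spots. 1G11 is a mouse microvascular endothelial cell line, labeled as strain C57BL/6NCrLBR. The groups were 1G11-mock cells, which do not overexpress SOD3, and 1G11-SOD3 cells, which overexpress extracellular superoxide dismutase (SOD3). Both groups had spent 6 h in conditioned medium of N202.1A cells, a mouse mammary cancer line, so that no array shows either cell line without this medium. Total RNA from 3 biological replicates per cell line was labeled with Cy3 and hybridized.

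Complement is a chain of plasma proteins, some of them proteases, that are also made locally, by endothelial cells among others. In the classical pathway the proteases C1r and C1s cleave C4 and C2, which together form an enzyme that cleaves C3, and in the alternative pathway factor B (Cfb) forms such an enzyme with C3 itself. Cleaved C3 marks surfaces and starts the assembly of the membrane attack complex, whereas C1 inhibitor (Serping1), Cd55 and Cd59 restrain the chain at its first step, at the C3-cleaving enzymes and at the membrane attack complex.

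All values are log2 intensities after background correction and quantile normalization, and a gene with more than 1 probe is given by its brightest probe, that is the one of highest mean over all arrays. A gene was called changed at more than 2-fold with an adjusted p under 0.05 (limma, adjusted over 55681 probes). Between 34.2% and 43.8% of 59305 spots per array passed the scanner software's test for a signal well above background, and none was saturated. With 3 arrays per cell line an exact permutation test (2-sided) cannot give a p below 0.1. Each cell line occupied a slide row of its own (row 2 for 1G11-mock, row 1 for 1G11-SOD3), and the effects of line and row cannot be told apart. Probes printed 10 times showed that spots in the central block of rows and columns, called the middle of the array here, read dim on the 1G11-mock arrays: over 128 such probes the middle copies differed from the others by a median of -0.83, -1.27 and -2.62 on the log2 scale on 1G11-mock replicates 1, 2 and 3, against 0.22, -0.22 and 0.13 on the 1G11-SOD3 arrays. Sod3 itself, on a spot in the middle, read 13.61, 12.66 and 9.86 on the 1G11-mock and 16.37, 16.30 and 16.26 on the 1G11-SOD3 arrays, which matched the labels (log2 fold change 4.27, SE 0.70, limma adjusted p = 0.0076). After a smooth surface over row and column was taken off each array, a step referred to as the position adjustment, the log2 fold change of Sod3 was 2.66 (limma adjusted p = 0.0128). Of 12 endothelial markers, 3 were above background on all 6 arrays and 6 on none, among them Cdh5, while Pecam1 was above background on 4 arrays. One of the 12, Egfl7, was called higher in 1G11-SOD3 cells, at a log2 fold change of 1.83. After the position adjustment Egfl7 was at 0.98, under 2-fold. The summed unlogged intensity of the list ran from 21132 to 29214 on the 1G11-mock and from 15801 to 19276 on the 1G11-SOD3 arrays, without overlap. That sum follows the brightest genes, Eng and Kdr, at log2 fold changes of -1.05 and -0.51, and neither was called. Gene by gene, the 12 had a median log2 fold change of 0.041, so the sum does not show a fall shared by the list. Of 10 leukocyte markers, 4 were above background on all arrays (Csf1r, Itgam, Cd14 and Cd3e) and 6 on none, Ptprc included, and of 8 epithelial markers Krt19 was above background on all arrays and 3, Epcam included, on none. No leukocyte or epithelial marker was called, and their summed intensities overlapped between the cell lines, at 21846 to 27734 against 21962 to 27346 and at 68003 to 112280 against 44828 to 84925. Of 8 fibroblast and pericyte markers, 4 were called higher in 1G11-SOD3 cells, and the summed intensity of these 8 ran from 74364 to 75126 on the 1G11-mock arrays and from 132100 to 365910 on the 1G11-SOD3 arrays. This sum, too, follows the brightest genes, Col3a1 and Dcn. Dcn read 13.51, 13.59 and 17.05 on 1G11-SOD3 replicates 1, 2 and 3 and was not called (limma adjusted p = 0.90), whereas Col3a1 was called higher. The part of these cell markers in the complement results was not tested.

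In 1G11-SOD3 cells 4 of the 9 complement genes were called lower and none higher. The 4 were C1s, C1ra, C3 and Cd55, lower by 2.94-fold to 8.01-fold as measured (log2 fold changes of -2.45 to -1.28 after the position adjustment). Over all 36869 genes 1.27% were called lower and 2.14% higher. Only 5 of the 9 genes were above background on all 6 arrays, namely these 4 and Cd59a, and among the 13159 genes with that property 3.05% were called lower. C2, C4b and Cfb were above background on some arrays and Serping1 on none. The median log2 fold change was -0.34 over the 9 genes, a value set by Cfb, which read near background, and -0.038 over all genes. It was -2.26 over the 5 genes above background on all arrays and -0.13 over all genes of that kind.

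Each probe is a stretch of 60 bases, and 4 of them are shown to let the reader see which parts of the messages were read. The second C3 probe and the brightest C1ra probe stand for genes that were called lower, and the Cfb and Serping1 probes stand for genes that read near background. Positions come from the array annotation, for which no build is named in the files, and all 4 sequences are in the sense direction of the gene. The C3 probe lies at chr17:57343678-57343737 and the C1ra probe at chr6:124472674-124472733. The Cfb and Serping1 probes are each split by an intron, since their 60 bases extend over 357 bases of chr17:34993502-34993858 and over 1507 bases of chr2:84605968-84607474.
C3: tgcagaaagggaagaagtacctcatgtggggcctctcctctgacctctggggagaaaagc
C1ra: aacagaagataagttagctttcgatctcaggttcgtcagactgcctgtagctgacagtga
Cfb: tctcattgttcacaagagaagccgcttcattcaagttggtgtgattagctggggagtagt
Serping1: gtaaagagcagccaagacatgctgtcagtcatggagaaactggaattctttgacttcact

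The proteases that open the classical pathway were lower in 1G11-SOD3 cells. C1s, which cleaves C4 and C2, read 13.87, 14.28 and 14.94 on the 1G11-mock arrays and 11.51, 11.23 and 11.35 on the 1G11-SOD3 arrays (log2 intensity, replicates 1, 2 and 3). The lowest 1G11-mock array stood well above the highest 1G11-SOD3 array, and the means were 14.36 ± 0.54 and 11.36 ± 0.14 (SD, n = 3). The log2 fold change was -3.00 (SE 0.28, 95% interval -3.62 to -2.38, limma adjusted p = 0.00038), an 8.01-fold difference. The C1s spot lies in the first column of the array, where the surface of the position adjustment was also lower on the 1G11-SOD3 arrays, and after the adjustment the log2 fold change was -2.37 (limma adjusted p = 0.0029). C1s is named C1s1 in current RefSeq.

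C1ra, the protease that activates C1s, read 13.82, 14.04 and 14.57 on the 1G11-mock and 12.41, 12.39 and 12.95 on the 1G11-SOD3 arrays with its brightest probe, the one printed above. The groups did not overlap, with means of 14.14 ± 0.39 and 12.59 ± 0.32 (SD, n = 3). The log2 fold change was -1.56 (SE 0.27, 95% interval -2.15 to -0.96, limma adjusted p = 0.0101), a 2.94-fold difference. The second C1ra probe read 13.59, 13.38 and 13.14 against 12.19, 12.56 and 12.55, again with no overlap, but its log2 fold change of -0.94 (95% interval -1.45 to -0.43, limma adjusted p = 0.0572) was not called. The call of C1ra was the least stable of the 4. With the position adjustment the brightest probe was at -1.28 (limma adjusted p = 0.0289), but with 2 other forms of that adjustment, added after the data had been seen, it was at -1.22 with adjusted p of 0.0503 and 0.0507, and without 1G11-SOD3 replicate 1 it was at -1.47 with an adjusted p of 0.0504.

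**Figure D1:**
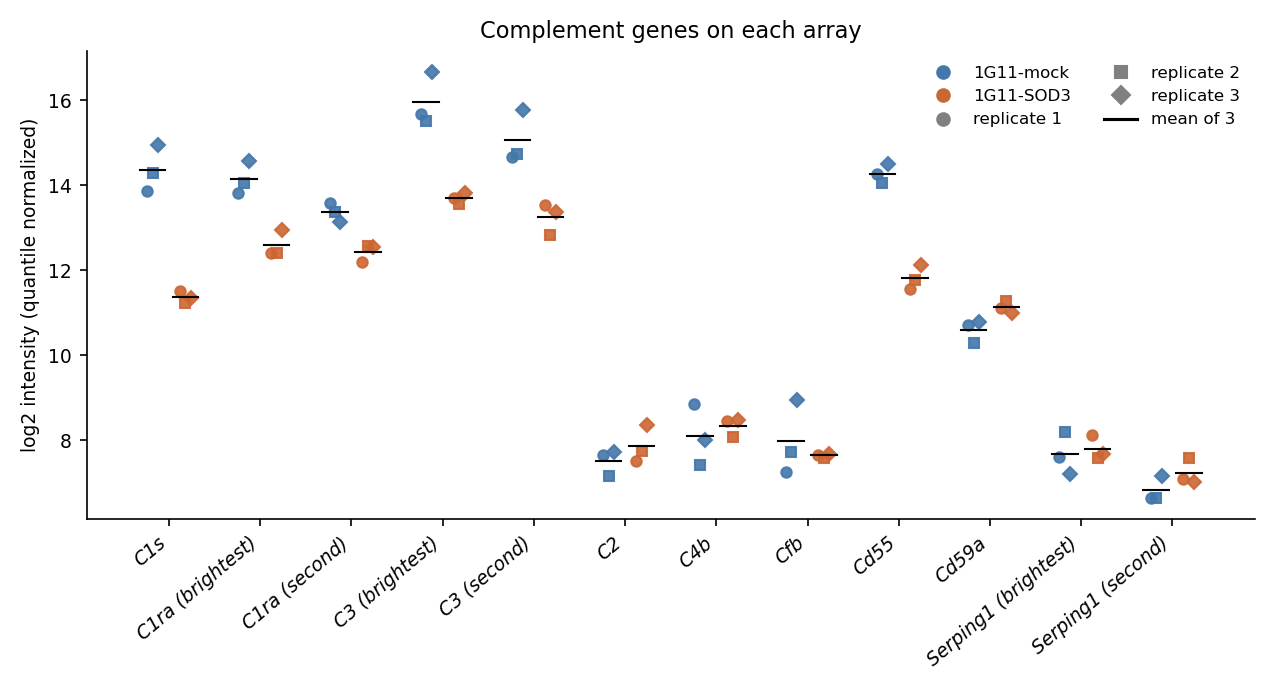
Log2 intensity (vertical axis, quantile normalized) of the 12 probes of the 9 complement genes on each of the 6 arrays, with 1G11-mock in blue, 1G11-SOD3 in orange, a marker shape per replicate and a black line at the mean of 3. Values are to be compared within a probe: the cell lines do not overlap for C1s, C3, C1ra and Cd55, which are lower in 1G11-SOD3 cells, nor for Cd59a, which reads higher, and they overlap for C2, C4b, Cfb and Serping1.

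Of the genes named at the start that code for parts of the C3-cleaving enzymes, C3 was lower in 1G11-SOD3 cells. C2, C4b and Cfb were near background. C3, on which all complement pathways converge, is printed 10 times, and the mean of the 10 spots was 15.67, 15.52 and 16.67 on the 1G11-mock arrays and 13.70, 13.56 and 13.83 on the 1G11-SOD3 arrays. 1G11-mock replicate 3 stood above the other 1G11-mock arrays, and the 3 1G11-SOD3 arrays lay close together. The means were 15.95 ± 0.62 and 13.69 ± 0.14 (SD, n = 3), the log2 fold change was -2.26 (SE 0.30, 95% interval -2.92 to -1.60, limma adjusted p = 0.0026) and the difference 4.79-fold. Without 1G11-mock replicate 3 it was -1.90 (limma adjusted p = 0.0044).

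The 10 spots of this C3 probe allow the same sequence to be compared at 10 places, none of them in the middle of the array. The log2 fold change ran from -2.70 to -1.77 over the 10 spots (SD 0.30), and at 10 of 10 spots the cell lines did not overlap. Spots share their 6 hybridized samples and are not replicates of the cell lines. The second C3 probe, the one printed above, read 14.66, 14.74 and 15.78 on the 1G11-mock and 13.53, 12.84 and 13.36 on the 1G11-SOD3 arrays, a log2 fold change of -1.82 (SE 0.32, limma adjusted p = 0.0119). After the position adjustment the 2 probes were at -2.10 and -2.03 (limma adjusted p = 0.0048 and 0.0056).

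**Figure D2:**
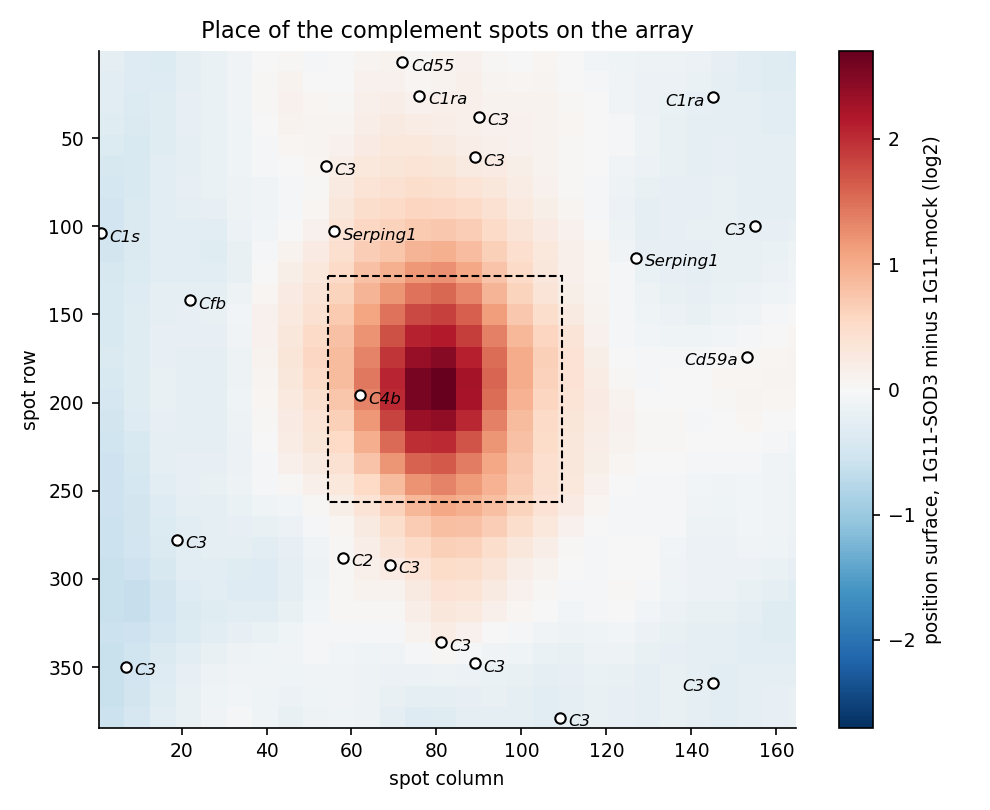
Place of the 21 complement spots (white circles, spot column against spot row) over the surface of the position adjustment, shown as its 1G11-SOD3 minus 1G11-mock difference (log2, mean of blocks of spots), with the middle of the array as a dashed box. C4b is the only complement spot in the box, at a surface difference of 1.20, while the 10 spots of the brightest C3 probe are scattered outside it.

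C4b, a part of the classical enzyme, had the only complement spot in the middle of the array and is therefore set apart. It read 8.84, 7.41 and 8.01 on the 1G11-mock and 8.46, 8.07 and 8.48 on the 1G11-SOD3 arrays, and it was above background on 1 and on 3 of these. The groups overlapped, and the log2 fold change of 0.25 (95% interval -0.48 to 0.98, limma adjusted p = 0.79) was not called. At this spot the surface was higher by 1.20 on the 1G11-SOD3 arrays, and after the position adjustment the log2 fold change was -0.85 (limma adjusted p = 0.199). The direction of C4b thus turned with the adjustment, and was called in neither case. The probe is annotated to both C4b and C4a, so that the 2 genes cannot be told apart.

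C2, the other part of the classical enzyme, read 7.65, 7.16 and 7.73 on the 1G11-mock arrays, where it was above background on none, and 7.50, 7.74 and 8.35 on the 1G11-SOD3 arrays, where it was above background on 1. No fold change is given, and the limma adjusted p was 0.63. Cfb, of the alternative pathway, read 7.26, 7.72 and 8.95 against 7.66, 7.58 and 7.67. It was above background on 1G11-mock replicate 3 alone, the array with the highest C3, and the groups overlapped. No fold change is given, since the difference turned in direction without that array, and the limma adjusted p was 0.74.

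Among the regulators, Cd55 was lower in 1G11-SOD3 cells and the others were not called. Cd55, or decay-accelerating factor, a membrane protein that takes C3-cleaving enzymes apart, read 14.27, 14.06 and 14.49 on the 1G11-mock and 11.57, 11.76 and 12.13 on the 1G11-SOD3 arrays. All arrays of one cell line lay above all of the other, with means of 14.27 ± 0.22 and 11.82 ± 0.29 (SD, n = 3). The log2 fold change was -2.45 (SE 0.24, 95% interval -2.98 to -1.92, limma adjusted p = 0.00039), a 5.47-fold difference, and it was -2.45 after the position adjustment too (limma adjusted p = 0.0018).

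Cd59a, a membrane protein that blocks the membrane attack complex, read 10.71, 10.29 and 10.78 on the 1G11-mock and 11.11, 11.28 and 10.99 on the 1G11-SOD3 arrays. The 1G11-SOD3 arrays all read higher, as did those of 10.6% of all genes, whereas 11.1% of all genes and 4 of the 9 complement genes read lower there without overlap. Its log2 fold change of 0.53 (SE 0.23, 95% interval 0.02 to 1.04, limma adjusted p = 0.32) was not called. Serping1, which codes for the inhibitor of C1r and C1s, was above background on no array with either of its probes. Its brightest probe read 7.61, 8.19 and 7.20 on the 1G11-mock and 8.13, 7.58 and 7.67 on the 1G11-SOD3 arrays, and its probe printed above read 6.65, 6.65 and 7.15 against 7.09, 7.57 and 7.01. No fold change is given for Serping1, and a difference was not detectable at this signal.

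**Figure D3:**
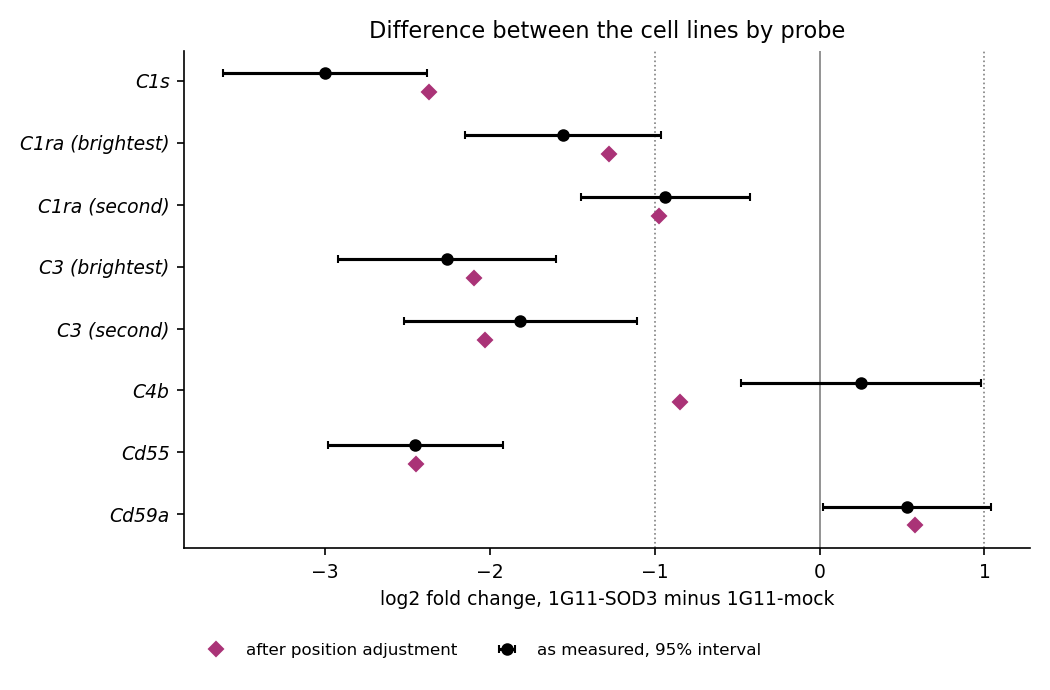
Log2 fold change (1G11-SOD3 minus 1G11-mock, horizontal axis) of the complement probes above background on at least 1 array of each cell line, as measured with its 95% interval (black) and after the position adjustment (purple), with dotted lines at 2-fold. C1s moves from -3.00 to -2.37 and C3 from -2.26 to -2.10, Cd55 stays at -2.45, and C4b turns from 0.25 to -0.85.

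The 4 genes that were called lower kept that direction under every way of processing that was tried. C1s, C3 and Cd55 were called lower under all 23 other settings, with log2 fold changes from -3.25 to -2.31 for C1s, from -2.48 to -1.90 for C3 and from -2.61 to -2.29 for Cd55. C1ra ran from -1.74 to -1.07 and was called under 20 of the 23. Cd59a was called under none and ran from 0.38 to 0.88. After the position adjustment the same 4 of 9 genes were called lower, against 2.92% of all genes. The balance over all genes turned with the adjustment, from 468 lower and 788 higher to 1075 lower and 504 higher (1.37%).

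**Figure D4:**
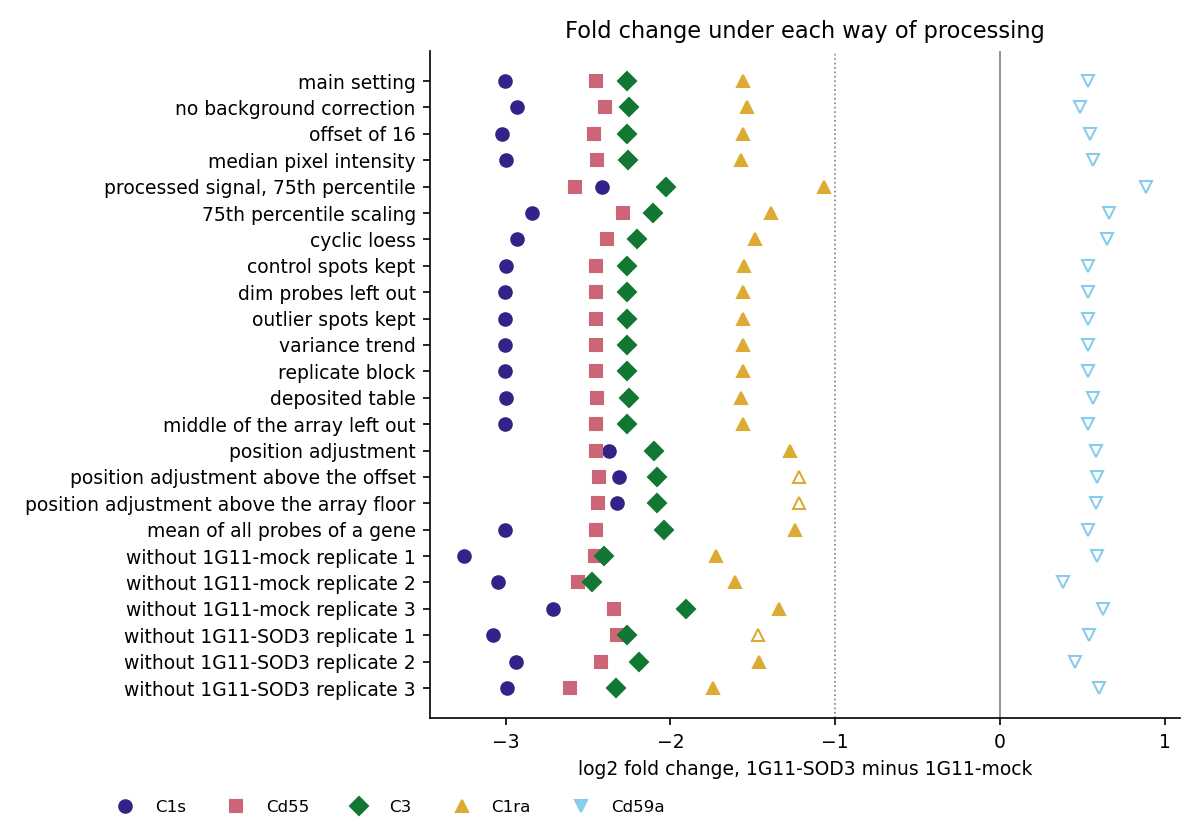
Log2 fold change (1G11-SOD3 minus 1G11-mock, horizontal axis) of C1s, Cd55, C3, C1ra and Cd59a under the main setting and each of 23 others (vertical axis), filled where the gene was called and open where it was not, with a dotted line at 2-fold lower. C1s, Cd55 and C3 are filled throughout, C1ra is open under 3 settings and Cd59a is open throughout.

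The other genes of the pathway were taken from a list of 57 complement genes, 56 of which had a probe. Of the 47 that are not among the 9, 30 were above background on no array and 10 on all. In this group 3 were called lower, C1rb, Cd55b and C9, and none higher, against 1.27% and 2.14% of all genes. C9, which codes for the pore-forming component, was above background on no array, and its fold change is therefore not given. Its call was lost after the position adjustment (limma adjusted p = 0.0696) and in 1 of its 2 other forms (adjusted p = 0.0699), and kept in the other (adjusted p = 0.0270). That adjustment in turn called Mbl2, C8b and C5ar1 lower, named here after their values were seen, which have their only spots in the middle and were above background on no array. Neither of the other forms called them. C1rb, a close copy of C1ra, read 10.62, 10.91 and 11.49 on the 1G11-mock and 9.24, 9.26 and 9.57 on the 1G11-SOD3 arrays, with a log2 fold change of -1.65 (SE 0.27, limma adjusted p = 0.0070). After the position adjustment it was at -1.01 (limma adjusted p = 0.0384), but its call was lost in the 2 other forms of the adjustment (adjusted p = 0.0638 and 0.0540). Cd55b, a close copy of Cd55, read 12.72, 12.51 and 13.03 against 9.98, 10.78 and 10.62, with a log2 fold change of -2.29 (SE 0.27, limma adjusted p = 0.0012), and was at -2.21 after the adjustment (limma adjusted p = 0.0011). Both copies thus read lower beside their named relatives. Each of these probes is annotated to 1 gene only, yet whether RNA of a close copy also binds to it was not tested, and C1rb and Cd55b are not counted as separate evidence.

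Other genes of the list, taken by the highest mean among those above background on all arrays, were not called. C1qbp, which codes for a protein that binds C1q, read 14.65, 14.10 and 13.41 against 15.19, 14.87 and 14.76, higher on all 1G11-SOD3 arrays but at a log2 fold change of 0.89 (SE 0.31, limma adjusted p = 0.19). Clu, an inhibitor of the membrane attack complex, was at 0.27 (SE 0.26) and turned to -0.052 after the position adjustment. Thbd, or thrombomodulin, was at -0.28 (SE 0.32) and Cr1l, a regulator of C3-cleaving enzymes, at -0.23 (SE 0.27), and the groups overlapped for Clu, Thbd and Cr1l. Itgam, a subunit of a receptor for cleaved C3, was at -0.0047 (SE 0.24) with its brightest probe and at -0.79 after the position adjustment (limma adjusted p = 0.088), where the surface was higher by 0.81 on the 1G11-SOD3 arrays. Its 2 other probes were above background on no array.

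**Figure D5:**
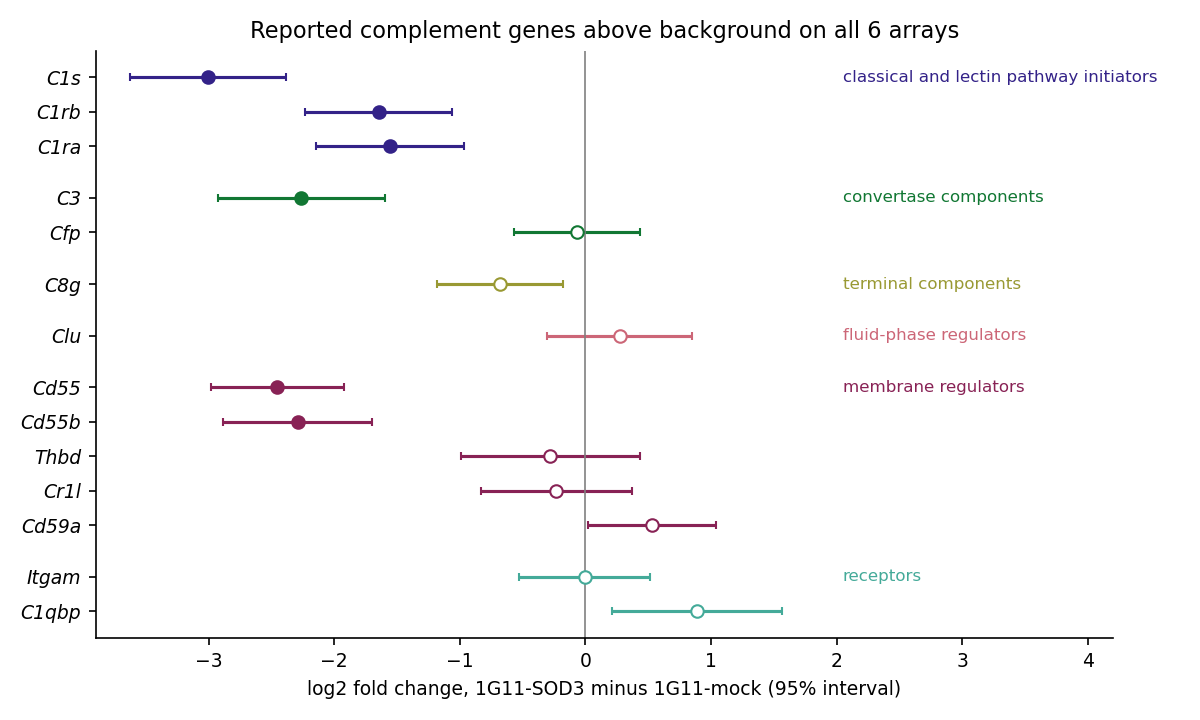
Log2 fold change (1G11-SOD3 minus 1G11-mock, horizontal axis) with its 95% interval for the complement genes reported here that were above background on all 6 arrays, grouped by role and filled where called. C1s, C1rb, C1ra, C3, Cd55 and Cd55b lie to the left of 0 with intervals that do not reach it, and no gene shown is called higher.

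By role, 3 of the 15 initiators of the classical and lectin pathways and 1 of the 6 components of C3-cleaving enzymes with a probe were called lower. So were 2 of the 9 membrane regulators and, in C9, 1 of the 7 terminal components, against 1.27% of all genes. The 3 initiators include C1rb and the 2 membrane regulators include Cd55b, the close copies that are not separate evidence. The call of C9 rests on values below background. Of the 9 soluble regulators and the 10 receptors none was called in either direction. Over the 15 genes above background on all arrays the median log2 fold change was -0.68, against -0.13 over all such genes. Without the members it was -0.26 over 10 genes, C1rb and Cd55b among them.

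The genes whose values over the 6 arrays were most like those of C3 were Epn2 (Pearson r = 0.998), Epc1 (r = 0.996) and Foxq1 (r = 0.996), among 9901 named genes above background on all arrays. Genes of the complement list, C1s, C1ra and Cd55 included, were left out of this ranking. The arrays fall into the 2 cell lines, and the likeness describes that difference together with the high 1G11-mock replicate 3. Epn2 read 15.22, 15.14 and 15.64 on the 1G11-mock and 14.44, 14.36 and 14.56 on the 1G11-SOD3 arrays, a smaller difference (log2 fold change -0.88) than that of C3.

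The stretch of 250 bases before the transcription start is shown for C3, Cd55 and C1ra, which were all called lower, and for C1s at the second of its listed starts. The sequences are from RefSeq (GRCm38.p6), which had them for 5 of the 9 genes, Cd59a being the fifth, and C2, C4b, Cfb and Serping1 were not matched. They were searched on both strands for the kappaB motif (GGG and CC with any 5 bases between them), the gamma-activated site TTCNNNGAA, the interferon-stimulated element (GAAA and GAAA with any 2 bases between them) and the C/EBP motif TTGCGNAA, and matches are in capitals.
C3 (chr17:57228137-57228386, minus strand): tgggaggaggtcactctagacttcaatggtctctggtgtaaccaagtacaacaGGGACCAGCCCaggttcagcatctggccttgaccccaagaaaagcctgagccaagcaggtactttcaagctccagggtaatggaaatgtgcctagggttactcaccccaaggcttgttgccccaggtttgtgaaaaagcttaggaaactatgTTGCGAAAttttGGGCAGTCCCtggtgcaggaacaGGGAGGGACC
Cd55 (chr1:130462745-130462994, minus strand): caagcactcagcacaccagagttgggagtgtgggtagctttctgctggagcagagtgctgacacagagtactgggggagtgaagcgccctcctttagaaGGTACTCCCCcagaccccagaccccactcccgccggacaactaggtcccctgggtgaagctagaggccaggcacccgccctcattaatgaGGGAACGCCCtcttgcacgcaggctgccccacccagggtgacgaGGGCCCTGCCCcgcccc
C1s (chr6:124542322-124542571, minus strand): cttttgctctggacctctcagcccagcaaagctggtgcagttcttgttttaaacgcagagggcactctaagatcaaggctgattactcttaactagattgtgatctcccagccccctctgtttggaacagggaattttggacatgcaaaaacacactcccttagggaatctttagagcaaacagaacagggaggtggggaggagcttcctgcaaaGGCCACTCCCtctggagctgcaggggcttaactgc
C1ra (chr6:124512371-124512620, plus strand): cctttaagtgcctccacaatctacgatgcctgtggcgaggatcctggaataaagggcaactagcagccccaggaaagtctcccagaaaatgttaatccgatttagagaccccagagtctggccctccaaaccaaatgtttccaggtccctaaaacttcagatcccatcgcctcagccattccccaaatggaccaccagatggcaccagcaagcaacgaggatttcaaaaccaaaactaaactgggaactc

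C3 and Cd55 each held 4 matches to the kappaB motif, of which 2 overlapped in each gene, C1s held 1 at the start shown and none at its other start, and C1ra held none. Cd59a, which was not called, held 1. This motif is loosely defined, and 45.8% of 32851 RefSeq promoters of the same length held at least 1 match. The share of promoters with 4 matches was not counted. C3 also held the C/EBP motif, 45 to 38 bases before the start, which 0.67% of the promoters held, next to a kappaB match that begins 33 bases before the start. The interferon-stimulated element was found in Cd59a alone of the 5 genes (2.98% of promoters) and the gamma-activated site in none (7.02%). Matches are descriptions of the letters, and binding was not measured on these arrays.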

How the data were processed

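The deposited scanner files (Agilent Feature Extraction 10.7.3.1) hold, per spot, the mean and median spot intensity, the local background intensity and a processed signal. They also deposited a table of log2 values, background corrected and quantile normalized, which served as an alternative. Mean intensities were corrected with normexp (offset of 50), taken to log2 and quantile normalized in limma 3.58.1 (R 4.3.3). Control spots and spots marked as outliers were left out, and spots of a probe were averaged. Cell lines were compared with limma and Benjamini-Hochberg adjustment over 55681 probes. Precision is limited by the 3 arrays available per cell line.

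The members, the list of 57 complement genes, the markers and the motifs were chosen with earlier results of these data known. All probes of members were described, and of the wider list the called genes and the 6 brightest others above background on all arrays, of which 1 is not reported here. The 3 genes most like C3, outside the list of 57, were named by Pearson's r.

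The position adjustment, planned with the other settings, took a smooth surface (fitted on spots with a mean of at least 8) off the log2 values. After the member values had been seen, 2 further forms were added (fitted on spots of at least 9), which take the surface off the signal above the offset or above each array's floor. For each of the 3 forms, 4 kernel widths were tried and the width with the smallest spread among 192 held-out probes was used. That spread fell from an SD of 0.48 to 0.169, 0.147 and 0.163.

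Replicates with the same number deviated together (r = 0.201, 0.141 and 0.138 over 19722 probes), and the number also gives the slide column. Figures were drawn with matplotlib 3.10.9 in Python 3.11.15.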

Additional observations from a re-analysis of the deposited data

How the results depend on the processing

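Between 3 and 4 of the 9 members were called, all lower, under every setting, leaving out each array included (3 to 4). The call of C1ra was lost with the position adjustment above the offset (-1.22), with that above the array floor (-1.22) and without 1G11-SOD3 replicate 1 (-1.47). The cause was not tested.

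The replicate block changed no member call. It gave 2260 called probes against 1629 without it. The count of 1629 moved to 1056 with no background correction, 11118 with the processed signal at the 75th percentile, 2518 with 75th percentile scaling, 843 without the spots in the middle of the array and 706 with the position adjustment above the array floor, and ran from 763 to 1785 with each array left out, being 813 without 1G11-mock replicate 2, 763, 1043 and 804 without 1G11-SOD3 replicates 1, 2 and 3. Of the 1629, 588 were lower and 1041 higher; the split was 9918 to 1200 with the processed signal, 1041 to 1477 with 75th percentile scaling, 544 to 299 without the middle, and 1625 to 629, 800 to 433 and 344 to 362 with the position adjustment as planned, above the offset and above the floor. The processed signal moved the median of all probes to -0.52 and the 75th percentile scaling to -0.34. The 7 called genes of the complement list became 19, all lower, with the processed signal and 4 with the position adjustment above the offset, and were 5 to 7 with each array left out.

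Among the 9 members, the log2 differences that turned were those of C4b, Serping1 and Cfb, which read near background and were called under no setting. C4b went from 0.25 to -0.27 with the processed signal, -0.016 with 75th percentile scaling, -0.85, -1.04 and -0.48 with the position adjustment as planned, above the offset and above the floor, and -0.089 without 1G11-mock replicate 2 (-0.089 to 0.62 with each array left out). Serping1 went from 0.12 to -0.66, -0.29, -0.11 (planned) and -0.089 (above the offset), to -0.11 without 1G11-mock replicate 3 and to -0.047 without 1G11-SOD3 replicate 1 (-0.11 to 0.38). Cfb went from -0.34 to 0.11 (planned) and 0.098 (above the offset), and to 0.15 without 1G11-mock replicate 3 (-0.70 to 0.15). Signal over background limits C2, C4b, Cfb and Serping1. The differences of Serping1, above background on no array, and of Cfb, above it on 1, show only that their direction was not stable and are not fold changes.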
